A study of Mus musculus with 6 samples.

Results

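The genes that encode the mitochondrial respiratory chain and ATP synthase were measured in embryonic mouse optic fissure, in controls and in embryos whose Fgfr1 and Fgfr2 genes were targeted by Six3Cre. The chain sits in the inner mitochondrial membrane. Complexes I and II feed electrons from NADH and succinate through ubiquinone to complex III, cytochrome c carries them to complex IV, which reduces oxygen, and complex V, the ATP synthase, uses the proton gradient made on the way. All of complex II and most subunits of the other complexes are encoded in the nucleus. In the embryonic eye, as in other growing tissues, most of these genes are expressed in all cell types, with levels that differ between types. Some encode subunit forms restricted to certain tissues. Members were chosen by gene symbol among probe sets with 1 symbol in the platform annotation: Nduf genes of families a, b, c, s and v, Sdha to Sdhd, Uqcr genes, Cox4 to Cox8 genes, Atp5 genes, Cyc1 and Cycs, taking for each gene the probe set whose mean over the 6 arrays was highest. This gave 92 of 18193 measured genes, of which 86 passed the filter on dim probe sets (mean log2 value of at least 4.07, an intensity of 15.1) that left 12281 genes in all. They comprised 34 complex I subunits (33 past the filter), 8 complex I assembly factors (all 8), 4 complex II subunits (all 4), 9 complex III subunits (all 9), cytochrome c, 19 complex IV subunits (14) and 17 complex V subunits (all 17).

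Both groups were C57BL/6J embryos at E11.5 homozygous for floxed Fgfr1 and floxed Fgfr2, so the controls carried the same conditional alleles. The control group, Six3Cre-;Fgfr1fx/fx;Fgfr2fx/fx, had no Cre transgene, and the FGFR mutant group was Six3Cre+;Fgfr1fx/fx;Fgfr2fx/fx. Six3Cre is active where the Six3 promoter fragment drives it, in the early eye field and ventral forebrain, and not in blood, vessels or the mesenchyme around the eye, which keep both receptors. The optic fissure is the groove at the underside of the optic cup, and it was cut out by laser, which can take in neighbouring cells. Each group had 3 arrays, numbered 8711, 9216 and 9266 in the labels, and the labels do not say whether an array held 1 embryo or a pool. The p-values therefore reflect the spread of these 6 samples alone, and part of that spread may be technical.

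Intensities had been scaled by the authors to the same 2% trimmed mean in every array. The mutant 8711 array stood apart: its median intensity was 18.1 against 28.6 to 34.5 in the other 5 arrays, its mean correlation with the others was 0.836 against 0.917 to 0.932, and its ratio of the 3 prime to the 5 prime Gapdh control probe set was 93.6 against 4.26 to 15.0. The corresponding ratio for Actb was 14.8 against 6.03 to 12.1, a smaller gap. List medians, and most gene differences that move by over 1.5 times without this array, are given both ways. Of the floxed genes, Fgfr1 had intensities of 247, 89.8 and 238 in controls 8711, 9216 and 9266 and 59.9, 64.1 and 141 in the mutants, while Fgfr2 had 351, 314 and 474 in controls and 869.9, 928 and 1316 in mutants, the opposite direction to a loss. Neither passed the test (adjusted p of 0.852 and 0.410, limma), and where the probes lie relative to the floxed exons was not analysed here, so these values do not check the labels. In a bulk sample, fewer cells of a type and less RNA per cell cannot be told apart. All 9 tested pigment epithelium markers were higher in the mutants. The summed intensities given here are over all measured markers of a list, including those that did not pass the filter. For pigment epithelium the sum was 18963 to 28525 against 11573 to 13395 in controls. All 6 tested neural retina markers were lower, with sums of 2786.5 to 3850.4 against 5711 to 6509. Their log2 differences ran from -1.74 to -0.0047, so 1 was almost unchanged, and without mutant 8711 1 was higher and 5 lower. All 9 mesenchyme markers and all 5 erythroid markers were higher, mesenchyme at 2237 to 2478 against 946 to 1814 and erythroid at 17037 to 18323 against 13307 to 17804. Macrophage markers were divided by gene, 4 higher and 4 lower, or 6 higher and 2 lower without mutant 8711. Their summed intensity was higher in every mutant array, at 2256 to 2727 against 1440.4 to 1952. Endothelial markers were 2 higher and 3 lower, with sums of 179 to 335 against 259 to 513, and lens markers 1 higher and 2 lower, with sums of 245 to 1382 against 533 to 873. No marker was at 0 on any array, and of the muscle markers Myh3, Myog, Tnnt2 and Acta1 did not pass the filter. The 1 muscle marker that did, the cardiac actin gene Actc1, had 28.1, 18.7 and 1.5 in controls and 34.1, 29.8 and 57.6 in mutants, a log2 difference of 1.70 (SE 0.85, adjusted p = 0.852 by limma). The part of this tissue composition in the results below was not tested.

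Nuclear genes of the chain are known to share binding sites for a few transcription factors near their start sites, among them NRF1, the ETS-family factor GABP and YY1. RefSeq promoter windows (GRCm38.p6, 250 bases before to 50 after the start site) were held for 75 of the 92 genes. They were searched on both strands for exact matches to 3 short motifs, NRF1 as GCGCATGC, ETS as CCGGAAGT and YY1 as AAGATGGCG, none of which is contained in another. The windows printed here are the 250 bases before the start site of 4 genes, Cycs and Cox6a1 for NRF1, Uqcrh for ETS and Atp5j for YY1, chosen to show 1 match of each kind upstream in an electron carrier and in complexes III, IV and V. Capitals mark the matched bases. All 4 genes lie on the minus strand, and each sequence is written 5′ to 3′ along the gene, from chr6:50566570-50566819 for Cycs, chr5:115348959-115349208 for Cox6a1, chr4:116075071-116075320 for Uqcrh and chr16:84834977-84835226 for Atp5j.
Cycs: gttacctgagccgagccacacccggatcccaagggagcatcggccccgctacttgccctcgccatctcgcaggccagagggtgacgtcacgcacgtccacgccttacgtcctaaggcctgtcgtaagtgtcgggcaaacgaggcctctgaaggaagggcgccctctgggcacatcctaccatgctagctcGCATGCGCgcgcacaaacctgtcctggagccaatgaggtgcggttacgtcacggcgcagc
Cox6a1: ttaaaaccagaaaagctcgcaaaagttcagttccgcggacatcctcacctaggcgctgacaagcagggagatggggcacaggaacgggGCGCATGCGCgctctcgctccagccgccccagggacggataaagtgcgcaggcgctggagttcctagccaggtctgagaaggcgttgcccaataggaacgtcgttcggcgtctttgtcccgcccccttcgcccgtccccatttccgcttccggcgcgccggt
Uqcrh: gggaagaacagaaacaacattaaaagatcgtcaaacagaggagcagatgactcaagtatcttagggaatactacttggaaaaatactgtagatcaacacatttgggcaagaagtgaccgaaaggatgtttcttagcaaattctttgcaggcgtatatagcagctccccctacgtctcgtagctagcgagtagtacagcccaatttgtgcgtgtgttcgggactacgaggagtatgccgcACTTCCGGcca
Atp5j: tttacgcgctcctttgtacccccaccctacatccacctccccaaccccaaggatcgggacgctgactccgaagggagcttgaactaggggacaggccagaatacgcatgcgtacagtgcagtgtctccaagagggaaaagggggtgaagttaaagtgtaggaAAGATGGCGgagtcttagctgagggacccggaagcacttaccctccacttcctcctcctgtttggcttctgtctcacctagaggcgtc

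The Cycs match begins at position -60 from the start site and the Uqcrh match at -11, both on the strand opposite to the gene. In Cox6a1 the capitals hold a pair of overlapping NRF1 matches, 1 on each strand, at -162 and -160, since the capitalised run reads the same on both strands. The YY1 match of Atp5j begins at -88. The 75 genes had 80 windows in all, and a gene was counted if any of its windows held a match. An NRF1 match was found in 12 of the 75 genes (16%), beside 6.04% of 9927 genes tested on the arrays. The share was 3.05% of all 27025 genes in the promoter table and 11.9% of 67 mitochondrial ribosomal protein genes. A YY1 match was found in 7 (9.33%), beside 3.5% of tested genes, 1.64% of all genes and 11.9% of mitochondrial ribosomal protein genes, and in 6 of these 7 it lay after the start site. An ETS match was found in 5 (6.67%), beside 8.98% of tested genes, 4.31% of all genes and 17.9% of mitochondrial ribosomal protein genes. In all, 23 genes held at least 1 of the 3 motifs and 1, Uqcr11, held more than 1 kind. These matches are descriptions of letters in these windows and not measured binding.

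**Figure D1:**
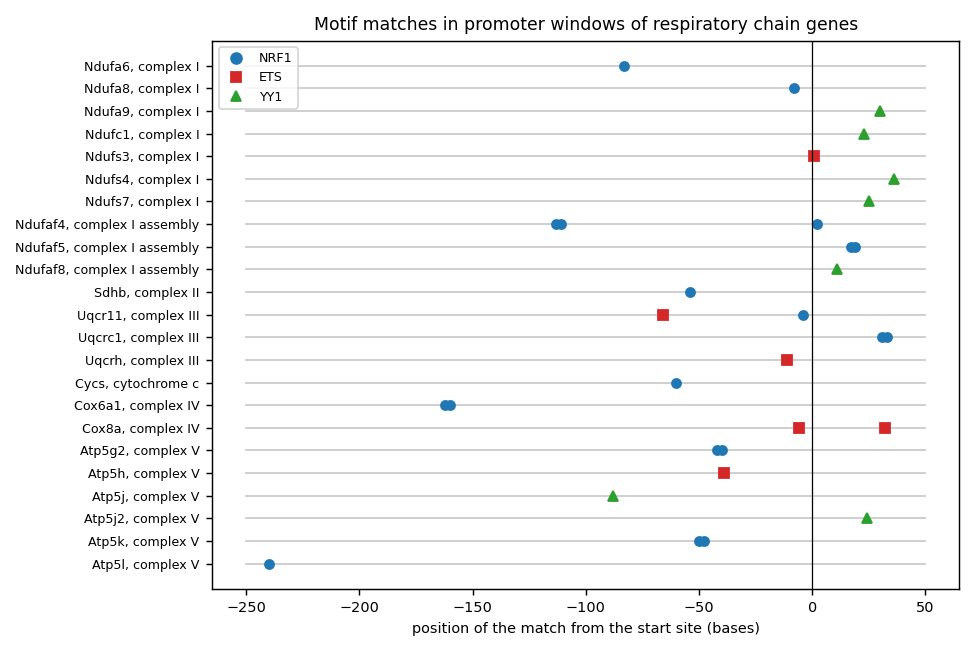
Positions of exact NRF1 (circles), ETS (squares) and YY1 (triangles) matches, in bases from the start site (vertical line), for the 23 respiratory chain genes with a match among the 75 with a promoter window. Matches of NRF1 lie on both sides of the start site, and 6 of the 7 genes with YY1 have it after the start site.

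The 12 tested genes with an NRF1 match had a median log2 difference (mutant minus control, of log2(intensity + 1.7)) of 0.19, against 0.27 for the other 59 tested genes with a window. The 5 genes with an ETS match had a median of 0.36 against 0.25, and the 7 with a YY1 match had 0.31 against 0.25. These medians were not tested.

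No respiratory chain gene passed the test between FGFR mutant and control optic fissure. Most nevertheless had slightly higher intensities in the mutants: 74 of the 86 tested genes were higher and 12 lower, with a median log2 difference of 0.23, quartiles of 0.12 and 0.34 and a range from -0.37 (Cyc1) to 0.72 (Cox6b2). Over all 12281 tested genes 53.3% were higher, 46.7% were lower and the median was 0.03. The adjusted p of the 86 genes (limma with Benjamini-Hochberg adjustment over 27022 probe sets) ran from 0.709 to 0.999, and 0 of these probe sets passed, a background of 0%. At an unadjusted p under 0.05, 3 of the 86 genes were higher (Ndufv3, Cox7a2 and Ndufv2) and 0 lower, shares near the background of 4.38% higher and 2.52% lower among all tested genes.

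The data bound the size of any change for many of these genes. The 95% interval of the difference lay within 1 log2 unit, or 2-fold, of no change for 63 of 86 genes, against a background of 46.8% of all tested genes. The median standard error was 0.24 and the median interval reached 0.56 to either side. The intervals were widest for Ndufa7 (-1.59 to 2.15), a small accessory subunit of complex I whose intensity already varied among controls from 349 to 1839.5, and for Ndufs5 (-1.43 to 1.94).

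**Figure D2:**
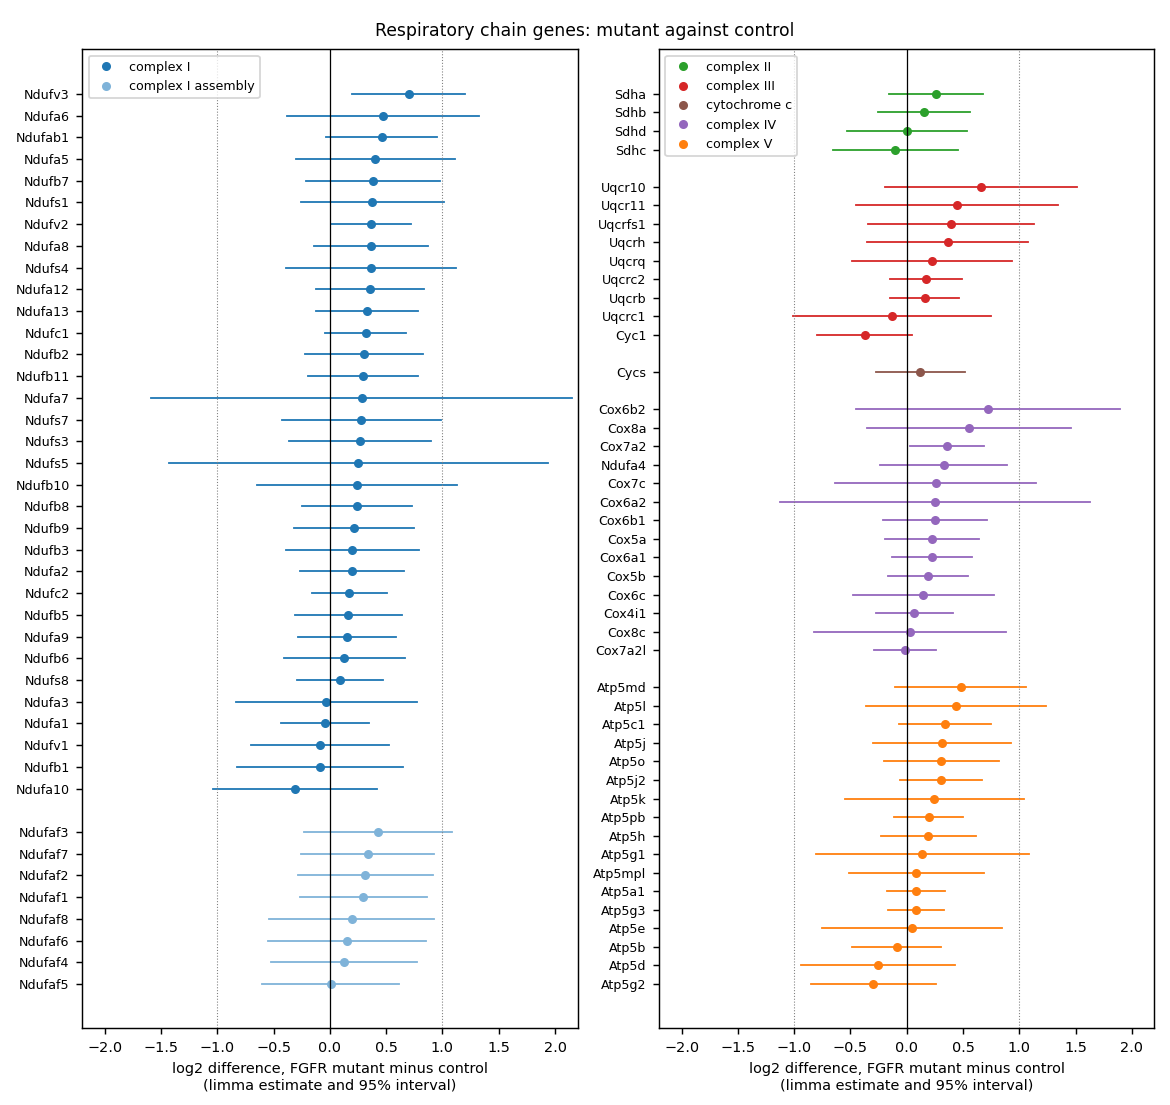
Log2 difference of FGFR mutant minus control (limma estimate, point, with 95% interval, line) for the 86 tested respiratory chain genes by complex, with dotted lines at 1 log2 unit from 0. Most points lie right of 0, 74 of 86, and 63 of the 86 intervals stay between the dotted lines.

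The higher values came largely from 1 array. Set against the mean of the controls, the median of the 86 genes was 0.57 in mutant 8711, 0.08 in mutant 9216 and 0.08 in mutant 9266, while the 3 controls had medians of -0.01, -0.09 and 0.09. For all tested genes the medians of the mutant arrays were 0.08, -0.02 and 0.09. Mutant 8711 was the highest of the 6 arrays for 64 of the 86 genes, against 3742 of all 12281 tested genes. The control 9216 array was the lowest for 36, and the matching count over all tested genes is not given here. The median of all tested genes was also lowest in control 9216, at -0.08. Without mutant 8711 the median difference was 0.07, with 58 genes higher and 28 lower, beside 0.02 for all tested genes. Between arrays of the same number, the median of all tested genes was 0.06 for 8711, 0.04 for 9216 and 0.01 for 9266. The median of the 86 genes was 0.55, 0.17 and -0.03 in that order. Within 9266, 38 of the 86 were higher and 48 lower, beside 6252 higher and 6019 lower of all tested genes. The 3 prime to 5 prime ratios and the median intensity of mutant 8711, given above, moved with this result, and their part in it was not tested.

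**Figure D3:**
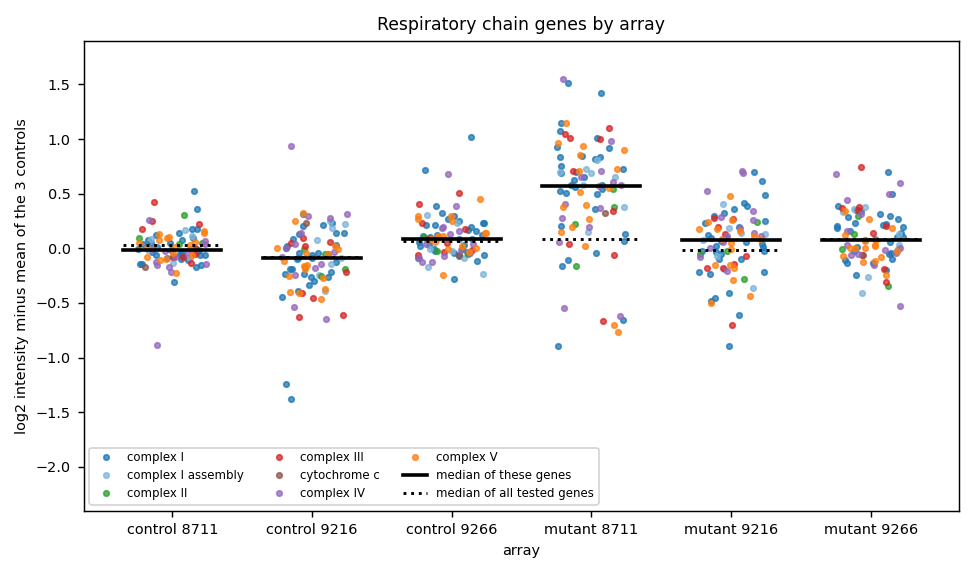
Log2 intensity of each of the 86 respiratory chain genes minus its mean over the 3 controls, by array, coloured by complex, with the median of these genes (solid bar) and of all tested genes (dotted bar). The solid bar stands at 0.57 in mutant 8711 and between -0.09 and 0.09 in the other 5 arrays.

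The shift of mutant 8711 was shared by the complexes. Against the controls, the median in this array was 0.63 for complex I, 0.67 for its assembly factors, 0.30 for complex II, 0.71 for complex III, 0.32 for Cycs, 0.49 for complex IV and 0.52 for complex V. It was not shared by every gene. Set against control 8711 alone, a different reference, 12 of the 86 were lower in mutant 8711, beside 5735 of all 12281 tested genes. Among these 12 were Ndufa10 (-1.07), Atp5d (-0.93), Atp5g2 (-0.76), the testis-type subunit gene Cox8c (-0.69), Cyc1 (-0.59) and Uqcrc1 (-0.49). The other end of this single-pair comparison was led by Cox6b2 (1.69), Atp5l (1.25), Ndufa6 (1.21) and Uqcr10 (1.16). No spread exists for a comparison of 1 array with 1 array.

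Complex I, the NADH dehydrogenase, had 28 subunit genes with higher and 5 with lower values in the mutants and a median log2 difference of 0.27, or 0.05 without mutant 8711. The flavoprotein module that accepts electrons from NADH, made of Ndufv1, Ndufv2 and Ndufv3, was divided. Ndufv3, its small accessory subunit, had intensities of 972, 948 and 1196 in controls 8711, 9216 and 9266 and 2078, 1355 and 1677 in the mutants in that order. The groups did not overlap. The control mean was 1039 ± 137 (SD, n = 3), the mutant mean was 1703 ± 362 (SD, n = 3), and they differed by 0.70 on the log2 scale (SE 0.21, 95% interval 0.20 to 1.20). This was the smallest p of the members, 0.0135 before and 0.709 after Benjamini-Hochberg adjustment (limma), and the difference was 0.54 without mutant 8711. Ndufv2, an iron-sulfur subunit, had 1816.5, 2005 and 1855 in controls and 2795, 2250.3 and 2313 in mutants, again without overlap. Its log2 difference was 0.37 (SE 0.15, 95% interval 0.01 to 0.72, adjusted p = 0.852 by limma), and 0.27 without mutant 8711. The other tested Ndufv2 probe sets overlapped between groups. They had log2 differences of 0.23 and 0.18, or -0.0086 and 0.05 without mutant 8711. Ndufv1, which binds the flavin and NADH, had 1632.5, 1402 and 1966 in controls and 1478, 1184 and 2155 in mutants. Its groups overlapped fully and its log2 difference was -0.09 (SE 0.26), or -0.05 without mutant 8711.

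Among the other complex I genes, Ndufab1, the mitochondrial acyl carrier protein, had 655.5, 639 and 686 in controls and 1163, 809 and 797 in mutants. In this probe set the groups did not overlap and the log2 difference was 0.46 (SE 0.21), or 0.28 without mutant 8711. The other tested Ndufab1 probe sets had log2 differences of 0.14, 0.03, 0.05 and -0.65. In the last, all mutants were lower, at 14.5, 31.2 and 39.3 against 43.1, 40.2 and 43.4 in controls, and the difference was -0.26 without mutant 8711. The groups of the others overlapped. Ndufc1, a small accessory subunit, also did not overlap in the probe set used. Its lowest mutant value of 3275.3 stood only just above its highest control value of 3274.3. A second Ndufc1 probe set overlapped and had a log2 difference of 0.04, or -0.35 without mutant 8711. Ndufa13, a membrane subunit also known as GRIM-19, had 2592, 2944 and 3126 in controls and 3014, 4663 and 3367 in mutants, so here mutant 9216 was the highest array. Its log2 difference was 0.33 with all arrays and 0.46 without mutant 8711, where its adjusted p was 0.525 (limma). Ndufa10, an accessory subunit of the membrane arm, was the complex I gene with the lowest difference. It had 1705, 1194 and 1697 in controls and 814, 1297 and 1727 in mutants, so that the log2 difference of -0.31 (SE 0.31) rested on mutant 8711 and was -0.01 without it. Ndufa1, which is needed for assembly of the membrane arm, had 5532, 6894 and 5483 in controls and 5502, 6949.5 and 5001 in mutants. Its log2 difference was -0.04 (95% interval -0.44 to 0.35), or -0.0098 without mutant 8711.

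The core subunits Ndufs1, Ndufs3, Ndufs7 and Ndufs8 and the accessory subunit Ndufs4 had log2 differences of 0.38, 0.27, 0.28, 0.09 and 0.36. Their standard errors ran from 0.16 (Ndufs8) to 0.32 (Ndufs4). In the probe sets used, these values rested on mutant 8711. Without it Ndufs1 had 0.10, Ndufs3 -0.02, Ndufs7 0.0020, Ndufs8 0.03 and Ndufs4 0.0077. In this Ndufs4 probe set the mutant 8711 value was 1706. The mutant 9216 and 9266 values of 880.3 and 748 lay within or below the control range of 757 to 888. The other tested Ndufs4 probe sets had log2 differences of 0.47, 0.40 and -0.02, or 0.31, 0.29 and -0.53 without mutant 8711. Ndufb4 did not pass the filter, with intensities from 3.9 to 16.4. All 8 complex I assembly factors had higher means in the mutants, with log2 differences from 0.01 (Ndufaf5) to 0.43 (Ndufaf3), a median of 0.25 and a smallest adjusted p of 0.852 (limma). Without mutant 8711, 5 were higher and 3 lower, with a median of 0.05, and Ndufaf3 had 0.23 and Ndufaf5 -0.06. Ndufaf1, which acts early in assembly of the membrane arm, had 251, 276.5 and 261 in controls and 425.5, 277.3 and 287 in mutants. Its mutant 9216 value thus stood just above its control 9216 value, and its log2 difference was 0.30, or 0.10 without mutant 8711.

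Complex II, succinate dehydrogenase, which also works in the citric acid cycle, had the smallest median of the complexes, 0.08 over its 4 genes, 3 higher and 1 lower. Without mutant 8711 the median was 0.02, with 2 higher and 2 lower. All 4 intervals lay within 1 log2 unit of 0. Sdha, the flavin subunit that oxidises succinate, had 1764, 1709.8 and 1689.9 in controls and 2501, 2028 and 1719 in mutants. The groups overlapped only through control 8711 and mutant 9266, and the log2 difference was 0.26 (SE 0.18), or 0.12 without mutant 8711. Sdhb, the iron-sulfur subunit, had 1660.3, 1365 and 1669 in controls and 1816, 1501 and 1911 in mutants, a difference of 0.15 (SE 0.17). The membrane anchors Sdhc and Sdhd had differences of -0.10 (SE 0.23) and 0.0017 (SE 0.23), or -0.07 and -0.18 without mutant 8711. Sdhd had 662, 616 and 636 in controls and 827, 626 and 502 in mutants, with 1 mutant array above, 1 within and 1 below the control range. The mutant SD was 164 against 22.8 in controls.

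Complex III, which passes electrons from ubiquinol to cytochrome c, had 7 genes higher and 2 lower and a median log2 difference of 0.22, or 0.07 without mutant 8711. Only 4 of its 9 intervals lay within 1 log2 unit of 0. Cyc1, the cytochrome c1 subunit that hands electrons to cytochrome c, had 2132, 2416 and 2235 in controls and 1420.3, 2040.3 and 1829 in mutants. It was the 1 gene of the 86 with all mutant arrays below all controls, beside a background of 5.45% of tested genes. The control mean was 2261 ± 144 (SD, n = 3) and the mutant mean 1763 ± 315 (SD, n = 3). The log2 difference was -0.37 (SE 0.18, 95% interval -0.80 to 0.05). The adjusted p was 0.852 (limma), and the difference was -0.22 without mutant 8711. Uqcr10, a small accessory subunit, had 158, 119 and 234.5 in controls and 355, 179.6 and 277 in mutants, with overlap and a log2 difference of 0.66 (SE 0.36), or 0.44 without mutant 8711. Uqcrfs1, the Rieske iron-sulfur protein, had a difference of 0.39 (SE 0.31), which was 0.09 without mutant 8711. The core proteins Uqcrc1 and Uqcrc2 had -0.13 (SE 0.37) and 0.17 (SE 0.13). Uqcrb, a ubiquinone-binding subunit, had 8183, 8791 and 8955 in controls and 10954.5, 9917.5 and 8273 in mutants, a difference of 0.16 (SE 0.13), or 0.07 without mutant 8711.

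Cycs, cytochrome c itself, had 3193, 4233 and 3444 in controls and 4499.8, 3851 and 3454 in mutants. The groups overlapped. The control mean was 3623 ± 543 (SD, n = 3) and the mutant mean 3935 ± 528 (SD, n = 3). The log2 difference was 0.12 (SE 0.17, 95% interval -0.27 to 0.51), and 0.02 without mutant 8711.

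Complex IV, cytochrome c oxidase, had 13 tested genes higher and 1 lower, a median log2 difference of 0.24, and 0.15 without mutant 8711. Several of its subunits exist as a ubiquitous form and a form restricted to heart, muscle, testis or hypoxic tissue. Of the 5 members of complex IV that did not pass the filter all were of the second kind: Cox4i2, the lung and hypoxia form (3.9 to 21.7 over the 6 arrays), Cox7a1, the heart and muscle form (8.9 to 19.9), Cox7b2, a testis form (0.3 to 5.6), Cox8b, the heart and muscle form (0.9 to 9.7), and Ndufa4l2, a hypoxia-induced relative of Ndufa4 (1.7 to 10.3). Cox6a2, the heart and muscle form, passed with intensities from 12.2 to 47.5 and had a log2 difference of 0.25 with a wide interval, -1.12 to 1.63, and 0.65 without mutant 8711. The levels of different probe sets were not compared with each other, since each has its own brightness per molecule.

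Cox7a2, the ubiquitous form of subunit 7a, had 4473, 4362 and 5047 in controls and 6849, 5265.5 and 5747 in mutants. The groups did not overlap. The control mean was 4627 ± 368 (SD, n = 3) and the mutant mean 5954 ± 812 (SD, n = 3). The log2 difference was 0.36 (SE 0.14, 95% interval 0.03 to 0.69, adjusted p = 0.852 by limma), or 0.25 without mutant 8711, and a second probe set of the gene had 0.48. Its relative Cox7a2l, which has been linked to supercomplexes of complexes III and IV, had 5458, 5940.4 and 5922 in controls and 6001, 5999 and 5178 in mutants. That gene had a log2 difference of -0.01 and a 95% interval of -0.29 to 0.26. Cox4i1, the ubiquitous regulatory subunit, had 5681, 5227 and 6442.5 in controls and 6980.3, 5465 and 5783 in mutants, a difference of 0.07 that was -0.04 without mutant 8711. Cox5a and Cox5b, both nucleus-encoded subunits on the matrix side, had 0.23 (SE 0.18) and 0.19 (SE 0.15), or 0.05 and 0.10 without mutant 8711.

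Cox6a1 and Cox6b1, the ubiquitous forms of subunits 6a and 6b, had log2 differences of 0.22 (SE 0.15) and 0.25 (SE 0.19), or 0.13 and 0.28 without mutant 8711. Cox6b2, the testis form, had 42.2, 31.6 and 75.7 in controls and 139.9, 50.7 and 66.7 in mutants, and the largest difference of all 86 genes, 0.72 (SE 0.49). It rested on mutant 8711, was 0.31 without it, and its groups overlapped. Cox8a, the ubiquitous subunit 8, had 219.9, 116 and 241 in controls and 364, 183 and 294 in mutants, a difference of 0.55 (SE 0.38), or 0.34 without mutant 8711. Cox8c had 0.03 (SE 0.36), or 0.36 without that array. Ndufa4, first assigned to complex I and now placed in complex IV, had 838, 1156 and 863 in controls and 1478, 1197 and 933 in mutants, a difference of 0.33 (SE 0.24), or 0.17 without mutant 8711.

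Complex V, the ATP synthase, had 14 genes higher and 3 lower and a median log2 difference of 0.19, or 0.03 without mutant 8711. Atp5a1 and Atp5b, the alpha and beta subunits of the catalytic head, had log2 differences of 0.09 (95% interval -0.17 to 0.34) and -0.09 (95% interval -0.49 to 0.31). Without mutant 8711 they had 0.03 and -0.15. Atp5c1, the gamma subunit of the central shaft, had 3819, 5031 and 3398 in controls and 4851.5, 5624 and 4841 in mutants, a difference of 0.34 (SE 0.17), and 0.37 without mutant 8711. Atp5d, the delta subunit at the foot of the shaft, had 3381, 2280.1 and 3588 in controls and 1775, 2664 and 3441 in mutants. Its difference of -0.26 (SE 0.29) rested on mutant 8711 and was 0.0016 without it. A second Atp5d probe set had -0.82, with 280 in mutant 8711 against 868 to 1423 in controls.

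The c-ring, whose rotation is driven by protons, is encoded by Atp5g1, Atp5g2 and Atp5g3, which make the same mature protein. Atp5g3 had 6674, 7149.7 and 7576 in controls and 7918, 7564 and 7125 in mutants, with a log2 difference of 0.08 (95% interval -0.17 to 0.33), or 0.04 without mutant 8711. Atp5g2 had 893, 752.5 and 947 in controls and 527, 773 and 845 in mutants, a difference of -0.30 (SE 0.23) that was -0.09 without mutant 8711. Atp5g1 had 417, 296 and 481 in controls and 764, 288 and 360.5 in mutants. Its difference turned from 0.14 (SE 0.40) to -0.27 when mutant 8711 was left out.

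The complex V genes without overlap in the probe set used were Atp5j2, Atp5md and Atp5pb. The other tested probe sets of Atp5j2 and Atp5pb overlapped between groups. Those of Atp5j2 had log2 differences of 0.49 and -0.05, or 0.11 and 0.13 without mutant 8711. That of Atp5pb had 0.31, or -0.11 without mutant 8711. Atp5j2, a small membrane subunit, had 3211, 2897 and 3331 in controls and 4606, 3722 and 3418 in mutants, a log2 difference of 0.31 (SE 0.15), or 0.18 without mutant 8711. Atp5md, a small subunit that supports dimers of the enzyme, had 456, 460.4 and 515 in controls and 915, 532 and 606 in mutants, a difference of 0.48 (SE 0.25), or 0.25 without mutant 8711. Atp5pb, part of the outer stalk, had 4655, 4605 and 4655 in controls and 6124, 5011 and 4868 in mutants, a difference of 0.19, or 0.09 without mutant 8711. In all, 9 of the 86 genes had all 3 mutant arrays above all 3 controls, beside a background of 9.38% of tested genes. Mutant 8711 was the highest array in each of the 9.

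**Figure D4:**
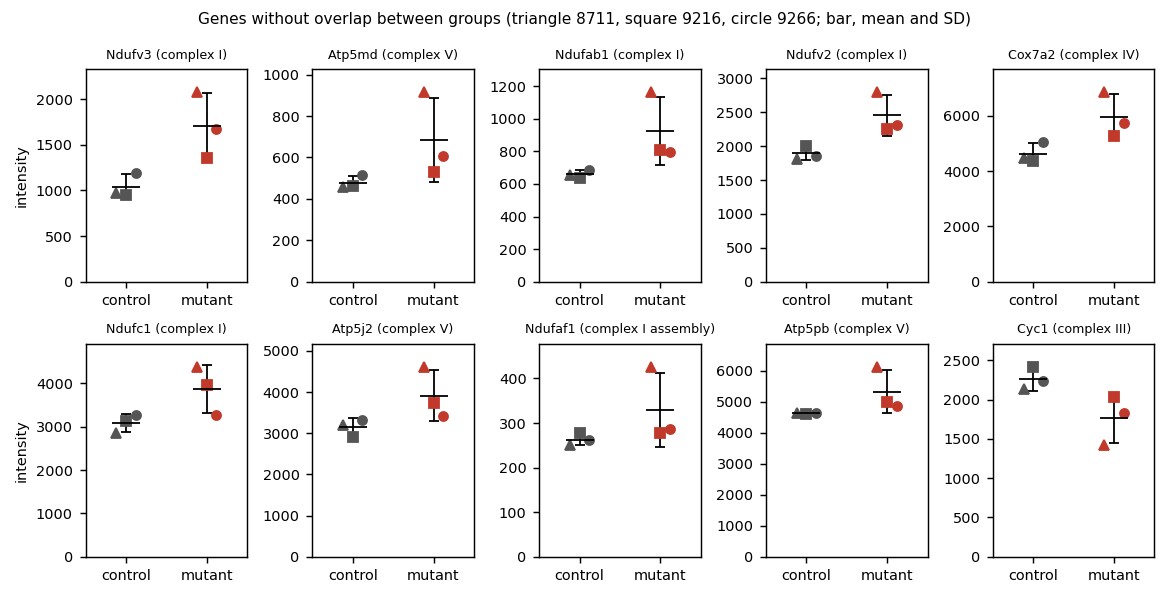
Intensity in each array (grey, control; red, FGFR mutant; triangle, 8711; square, 9216; circle, 9266) with mean and SD of 3 arrays, for the 10 respiratory chain genes whose groups did not overlap in the probe set used. In 9 genes the mutants lie above the controls, and in Cyc1 they lie below, at 1420.3 to 2040.3 against 2132 to 2416.

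Other genes of mitochondrial function gave 0 calls after adjustment in any list (limma, threshold 0.05). Factors that assemble the chain had 22 of 37 tested genes higher and 15 lower, with a median of 0.13. Regulators of mitochondrial biogenesis had 11 higher and 10 lower, with a median of 0.00071. Citric acid cycle and pyruvate dehydrogenase genes had 11 higher and 6 lower, with a median of 0.07. Mitochondrial ribosomal proteins had 53 of 76 higher and 23 lower, with a median of 0.11. Carriers, porins and import proteins had 9 higher and 14 lower, with a median of -0.04. At an unadjusted p under 0.05 these 5 lists had 1, 1, 0, 0 and 1 genes higher and 0, 0, 0, 1 and 0 lower, against the background of 4.38% and 2.52%. In mutant 8711, the ribosomal proteins had a median of 0.47 above controls, the biogenesis regulators 0.30, the citric acid cycle genes 0.19, the assembly factors 0.18 and the carriers 0.06. Without this array the median differences of the 5 lists were -0.03 for ribosomal proteins, -0.11 for biogenesis regulators, -0.04 for citric acid cycle genes, 0.01 for assembly factors and -0.07 for carriers. Transcripts of the mitochondrial genome were not analysed here.

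**Figure D5:**
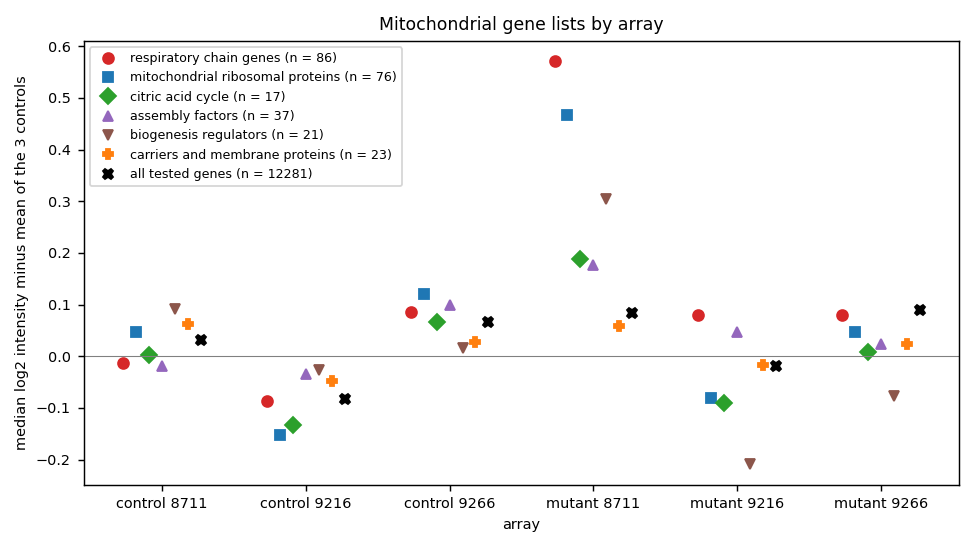
Median log2 intensity minus the control mean, by array, for the respiratory chain genes, 5 other mitochondrial gene lists and all tested genes. Respiratory chain genes (0.57) and mitochondrial ribosomal proteins (0.47) stand highest in mutant 8711, and in the other mutant arrays they lie between -0.08 and 0.08.

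Ppargc1a, the coactivator PGC-1alpha that drives expression of chain genes, had 166, 274 and 199 in controls and 383.5, 287 and 413 in mutants. Its groups did not overlap, and its log2 difference of 0.77 (SE 0.27, adjusted p = 0.836 by limma) was 0.72 without mutant 8711. Its relative Pprc1 had -0.56 (SE 0.29). Sdhaf4, which helps to build complex II, had 247.5, 250.3 and 271 in controls and 438, 341 and 333 in mutants, with a log2 difference of 0.52 (SE 0.21). Sdhaf2, which adds the flavin to Sdha, had -0.45 (SE 0.23), the opposite sign. Pdha1, the E1 alpha subunit of pyruvate dehydrogenase, had -0.50 (SE 0.22), and its partner Pdhb had 0.32 (SE 0.16). Mrpl12, a mitochondrial ribosomal protein, had 626, 596 and 719.7 in controls and 410.0, 515 and 439 in mutants, with a log2 difference of -0.51 (SE 0.19), while Mrps36, named as another, had 0.71 (SE 0.31). Tomm22, an import receptor of the outer membrane, had 0.61 (SE 0.24) and the carrier Slc25a13 had -0.52 (SE 0.27), or -0.30 without mutant 8711. None of these passed the test.

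Of the 49 respiratory chain genes with more than 1 tested probe set, 36 had the same sign in all of them and 13 did not, among them Sdha, Sdhd, Cycs, Cox7a2l and Ndufab1. For Sdha, a dim probe set with 43.4, 78.9 and 62.1 in controls had 4.8, 53.8 and 80.8 in mutants and a log2 difference of -0.99, against 0.26 in the probe set used. The value of 4.8 was that of mutant 8711. Of the 92 probe sets used, 14 carry the manufacturer's suffix for probes shared by several genes' transcripts and 7 the suffix for possible cross-hybridisation, so part of their signal may come from related genes.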

How the data were processed

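The 6 Affymetrix arrays (3 control, 3 FGFR mutant, by the labelled genotype) measured laser-dissected optic fissure. Total RNA was taken up in Trizol and labelled with biotin, per the labels' protocols, and MAS5 is named in the submitters' processing notes. The authors' deposited values are linear intensities per probe set, already scaled (2% trimmed mean 150 in each array) and used without further normalization. That scaling assumes that most transcripts do not change.

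Of 45037 probe sets other than controls, 34945 had 1 symbol in the platform annotation, 932 several and 9160 none. Values were transformed as log2(intensity + 1.7), the 10th percentile, which understates the change of dim genes. Probe sets with a mean under the 40th percentile (log2 4.07, intensity 15.1) were left out, leaving 27022. Groups were compared with limma 3.58.1 (lmFit, eBayes with trend and robust; R 4.3.3, statmod 1.5.0) and Benjamini-Hochberg adjustment over all of them, threshold 0.05, after a check on simulated data. Log2 differences are mutant minus control. Promoter windows were read from RefSeq. Plots used matplotlib 3.10.9 under Python 3.11.15. The 6 arrays limit the precision.

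Genes named were, per complex, the brightest and those with the smallest p in each direction, with Sdh genes, Cyc1, Cycs and subunit isoforms, and per list the smallest p in each direction. Ndufc1, Ndufab1, Ndufa13, the Ndufs genes, the Ndufaf genes, Uqcrfs1, Uqcrc1, Uqcrc2, Cox5a, Atp5a1, Atp5b, Atp5c1, Atp5pb and the genes at the ends of ranges were named after their values were seen. The members and lists were chosen with earlier results of these data known. Alternatives covered the pseudocount, filter, scaling, moderation, array weights, replicate block, probe set rule and each array left out.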

Additional observations from a re-analysis of the deposited data

How the results depend on the processing

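No alternative of the 18 brought a respiratory chain gene past adjustment. The median difference of these genes stayed above 0 in all of them, within 0.074 to 0.32 when single arrays were left out (lowest without mutant 8711), and was 0.067 without both arrays numbered 8711, 0.10 with array weights (mutant 8711 weighted 0.151) and 0.34 with median centring, which moved the median of all tested probe sets from -0.05 to 0.06. Genes at an unadjusted p under 0.05 numbered 0 with median centring, 1 without trend and robust moderation, 14 with array weights, 0 without both 8711 arrays and 0 to 7 with single arrays left out (0 without control 8711, 2 without control 9216, control 9266 or mutant 8711, 7 without mutant 9216 or mutant 9266). The shares of all tested genes at this threshold in the same settings are not given here. No excess over a background can therefore be read from these counts. Probe sets past adjustment numbered 184 with array weights, 1 without both 8711 arrays and 0 to 1 with single arrays left out, 1 without mutant 8711. The cause was not tested.

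Of the 30 tested genes named by the rule, 15 kept their sign in every alternative and 15 did not, all with adjusted p above 0.05. Signs turned as follows. With median centring, Ndufa1 had 0.068, Ndufv1 0.026, Sdhc 0.0090 and Cox7a2l 0.097, and with quantile normalization Sdhd had -0.040. With array weights, Ndufa1 had 0.15, Cox7a2l 0.042, Sdhb -0.0051, Sdhd -0.13, Cox4i1 -0.035 and Atp5g1 -0.35. Without both 8711 arrays, Ndufa10 had 0.072, Sdhc 0.081, Atp5g3 -0.0037, Atp5d 0.082, Sdhd -0.16, Cycs -0.066, Cox4i1 -0.046 and Atp5g1 -0.23. With the mean of all tested probe sets of a gene, Sdha had -0.18 and Sdhd -0.0085. With single arrays left out, the ranges that crossed 0 were -0.18 to 0.065 for Ndufa1, -0.32 to 0.11 for Ndufv1, -0.23 to 0.052 for Sdhc, -0.054 to 0.057 for Cox7a2l, -0.48 to 0.0016 for Atp5d, -0.18 to 0.17 for Sdhd, -0.036 to 0.15 for Cox4i1, -0.19 to 0.72 for Cox6a2, -0.17 to 0.36 for Cox8c and -0.27 to 0.43 for Atp5g1.

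Same-numbered arrays correlated at 0.05 (8711), 0.48 (9216) and -0.11 (9266) in their deviations from the group means. Arrays of different numbers correlated at -0.45 to 0.35. Deviations within a group of 3 arrays are tied to each other, so these values cannot decide whether the numbers pair the arrays. With the number as a replicate block, 0 probe sets and 0 respiratory chain genes passed, 3 of these genes had an unadjusted p under 0.05 and the median was 0.23. Among dim genes, Cox6a2 (12.2 to 47.5) lay near the filter and had a wide interval, -1.12 to 1.63. Cox6b2, which was less dim, had a wide interval of -0.45 to 1.89. Ndufb1, also dim, had a narrower interval of -0.83 to 0.65.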
